A study of Mus musculus with 24 samples.

Results

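The genes described here were 48 mouse genes of cell division, chosen by name and grouped by what their products do: origin licensing and the replicative helicase (10 genes), DNA synthesis and nucleotide supply (3), cyclins and Cdk1 (8), transcription factors (2), mitotic kinases and the spindle checkpoint (8), the anaphase-promoting complex (2), chromosomes and kinetochores (6), the spindle (4) and cytokinesis (5). All 48 had a row in a table of 56205 gene rows, which held read counts from poly(A) RNA of whole liver. The 24 libraries came from C57BL/6J mice fed for 20 weeks on either a methionine-choline deficient (MCD) diet, which the study's methods describe as also rich in fat, or the control diet for it, with 12 libraries per diet, 6 animals of each sex in each diet. The study's results text instead names a diet deficient in choline and defined in amino acids (CDAHFD), and the labels' name MCD is used here. The sex behind each library and the age at the start of this diet were not given in the sources used here.

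Cells that enter the cell cycle first load the MCM helicase onto replication origins, then copy their DNA in S phase and finally separate the chromosomes in mitosis. D- and E-type cyclins with their kinases start this order of events through the E2F factors, whereas Cdk1 with cyclins A and B drives entry into mitosis and its genes are switched on late, among others by FoxM1. Most hepatocytes of an adult liver are quiescent, and many are polyploid because they have copied their DNA without completing division. RNA of whole liver holds all cell types, so that more dividing cells and more RNA of these genes per cell cannot be told apart.

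Total counts were 16793207 to 24915175 per control library and 16388650 to 24577848 per MCD library, and the 48 genes together held between 3601 and 9443 counts in a control library and between 7943 and 13835 in an MCD library. Levels are given in CPM (counts of a gene per 1000000 counts of its library) after scaling by edgeR's trimmed mean of M values (TMM). The TMM factors of the groups did not overlap (0.642 to 0.973 in control, 1.07 to 1.26 in MCD), and control replicate 12 had the lowest. Differences are log2 fold changes of MCD against control from edgeR's quasi-likelihood fit over 14109 genes, with Benjamini-Hochberg false discovery rates (FDR). A gene was called higher or lower at an FDR of 0.01 or less and a log2 fold change beyond 0.5 in either direction. Albumin (Alb), the main secreted protein of hepatocytes, had a median of 75520 CPM in control and 53760 CPM in MCD livers. Exons of 14 of the 48 genes overlap a gene on the other strand, and whether counting used strand was not given, so that reads of such genes could be counted for either.

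Among the 48 genes, most of those with mitotic roles were higher in MCD livers, whereas most of those with replication roles were not past these limits. Of the 48 genes, 44 passed the filter on low counts, and 27 of these were higher, 2 were lower and 15 did not pass. The shares over all 14109 genes were 19.2% in the higher direction and 19.1% in the lower. The 44 genes had a median log2 fold change of 1.02, and all genes tested one of -0.10. The filter asked for about 10 counts in 12 of the 24 libraries, whichever the diet, and 17 of the 27 higher genes were short of this level in at least 1 control library, 3 of them (Ccnb1, Aurkb and Nusap1) in more than 6. With 10 counts required in every library, 24 of the 48 were tested, 11 were higher and 1 was lower, and their median was 0.47 (all genes -0.07). The shares of all genes called at this stricter filter were not counted, here or below. In 9 of the 44, every MCD library lay above every control library, against 9.50% of all genes tested. Among the 22 tested genes with mitotic roles (kinases, anaphase-promoting complex, chromosomes, spindle and cytokinesis), 19 were higher and 0 were lower, with a median of 1.39. Of these 19, 14 were short of the filter's level in some control libraries. Among the 12 tested genes with replication roles, 3 were higher and 2 were lower, with a median of 0.21. With 10 counts required in every library, 7 genes with mitotic roles were tested and 5 were higher (median 1.43), and of 11 with replication roles 4 were higher and 1 was lower (median 0.29).

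**Figure D1:**
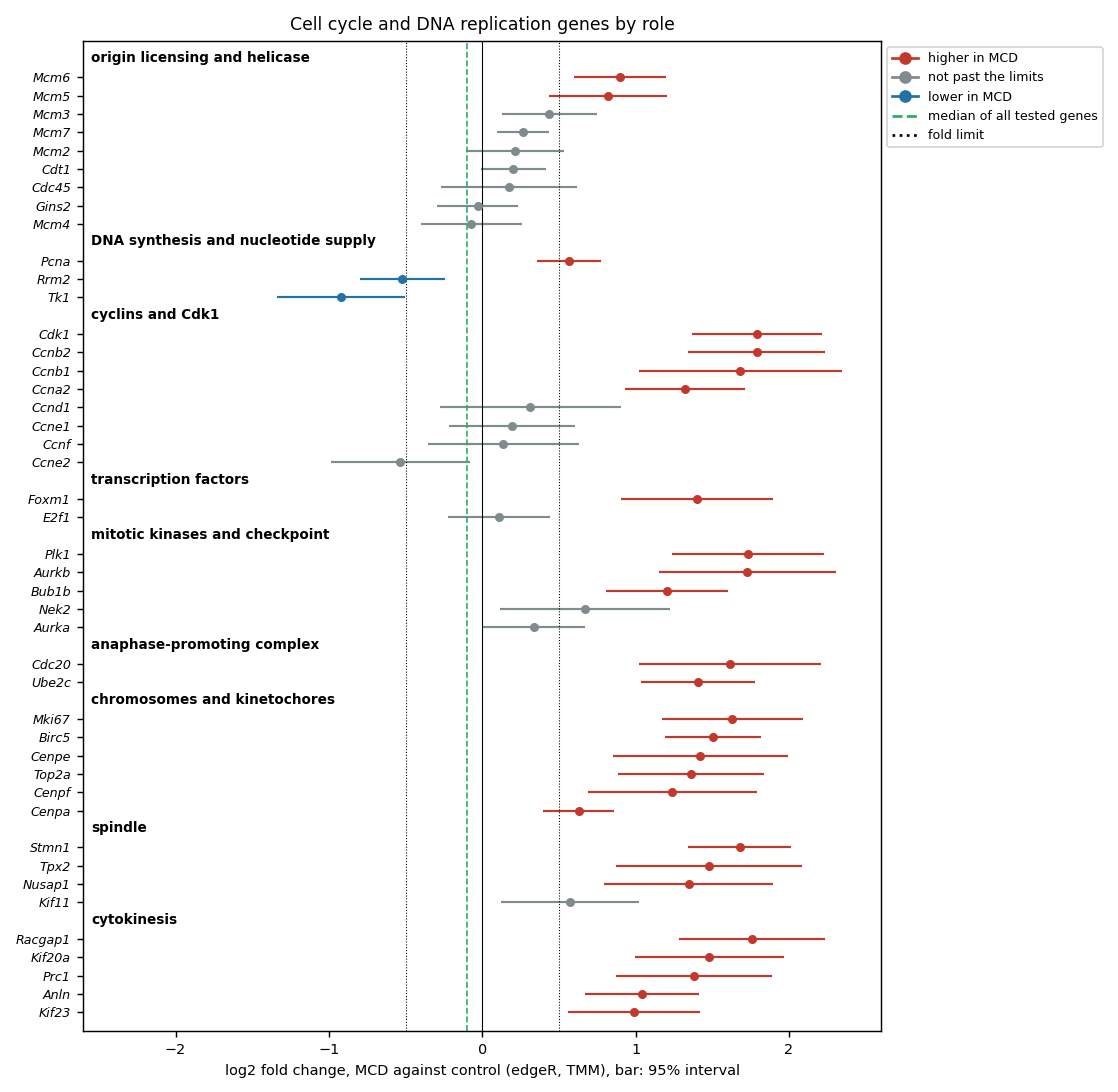
Log2 fold changes (x axis, edgeR with TMM factors) of the 44 tested genes, grouped by role, with 95% intervals as bars. Red genes were higher and blue genes lower in MCD livers; the dashed line marks the median of all 14109 genes (-0.10), and the dotted lines mark the fold limit of 0.5.

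The sequences upstream of 6 genes that were higher are shown because they come from both kinds of role: Cdk1, Ccnb1, Ccnb2 and Top2a are late genes of mitosis, and Mcm5 and Mcm6 are helicase genes. Capitals mark matches, on either strand, to 3 motifs known from cell cycle promoters: the CHR element (TTTGAA or TTCGAA), the E2F site (TTTCGCGC or TTTGGCGC or TTTCCCGC or TTTGCCGC) and the CCAAT box. Overlapping matches merge into 1 run of capitals. The sequences are RefSeq's for build GRCm38.p6, 5′ to 3′ on the strand of the gene, and end before the first annotated exon. They lie at chr10:69352939-69353108 (minus strand) for Cdk1, chr13:100786571-100786736 (minus) for Ccnb1, chr9:70421555-70421724 (minus) for Ccnb2, chr11:99024190-99024359 (minus) for Top2a, chr8:75109339-75109508 (plus) for Mcm5 and chr1:128359706-128359875 (minus) for Mcm6.
Cdk1: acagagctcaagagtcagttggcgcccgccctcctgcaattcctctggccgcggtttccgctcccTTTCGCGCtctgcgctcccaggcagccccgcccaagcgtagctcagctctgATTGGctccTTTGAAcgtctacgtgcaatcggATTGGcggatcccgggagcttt
Ccnb1: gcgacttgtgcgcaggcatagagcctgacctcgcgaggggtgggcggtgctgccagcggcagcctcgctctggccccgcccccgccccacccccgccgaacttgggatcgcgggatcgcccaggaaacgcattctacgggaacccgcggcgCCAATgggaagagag
Ccnb2: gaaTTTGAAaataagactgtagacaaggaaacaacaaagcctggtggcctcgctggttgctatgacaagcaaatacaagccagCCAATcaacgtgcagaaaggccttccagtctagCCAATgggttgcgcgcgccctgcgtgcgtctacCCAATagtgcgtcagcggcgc
Top2a: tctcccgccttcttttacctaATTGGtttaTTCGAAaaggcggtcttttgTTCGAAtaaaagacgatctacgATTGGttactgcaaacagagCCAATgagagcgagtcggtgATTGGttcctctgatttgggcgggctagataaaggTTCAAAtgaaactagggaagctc
Mcm5: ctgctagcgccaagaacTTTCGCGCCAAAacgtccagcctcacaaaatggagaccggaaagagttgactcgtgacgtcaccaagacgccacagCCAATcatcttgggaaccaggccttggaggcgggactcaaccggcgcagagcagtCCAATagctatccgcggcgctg
Mcm6: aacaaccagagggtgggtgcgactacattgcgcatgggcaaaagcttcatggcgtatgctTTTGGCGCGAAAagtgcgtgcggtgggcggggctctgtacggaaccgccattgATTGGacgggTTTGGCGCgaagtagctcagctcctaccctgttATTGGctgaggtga

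The printed stretch of Cdk1 held matches to all 3 motifs, with 1 CHR, 1 E2F and 2 CCAAT matches. Those of Ccnb2 and Top2a held CHR and CCAAT matches (1 and 3 in Ccnb2, 3 and 4 in Top2a) and no E2F match. That of Ccnb1 held 1 CCAAT match and no CHR or E2F match. Mcm5 and Mcm6 held E2F matches (2 and 3) and CCAAT matches (2 each) and no CHR match. RefSeq's table held 40 promoters for 38 of the 48 genes, and 10 genes, Ccnd1, Ccna2, Foxm1, Aurkb and Stmn1 among them, had no entry. Within 250 bases upstream of the start, 77.5% of the 40 promoters had a CCAAT match, 32.5% a CHR match and 12.5% an E2F match, compared with 33.8%, 17.1% and 1.86% of all 32851 promoters in the table. The 22 promoters of genes that were higher had a CCAAT match in 86.4% and a CHR match in 36.4%, and the 12 promoters of genes not past the limits had them in 75.0% and 41.7%. E2F matches were found in 4 of 12 promoters of genes with replication roles and in 0 of 22 promoters of genes with mitotic roles. These are matches of letters and say nothing about binding in these livers.

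Among the genes of origin licensing and the helicase, 2 of 9 tested were higher (Mcm5 and Mcm6), a share close to the 19.2% over all genes, 0 were lower, and the log2 fold changes ran from -0.07 to 0.90. Mcm6, a subunit of the MCM helicase (chr1:128331590-128359664), ranged from 4.75 to 11.8 CPM with a median of 5.94 in control and from 9.73 to 16.2 with a median of 12.6 in MCD livers. The groups overlapped, with 8 of 12 MCD libraries above every control, and the log2 fold change was 0.90 (SE 0.15, FDR 7.43e-06). Mcm5, another subunit, ranged from 1.41 to 6.98 CPM (median 3.25) in control and from 4.54 to 10.4 CPM (median 6.43) in MCD livers. Only 1 MCD library exceeded every control, because control replicate 5 reached 6.98 CPM, and the log2 fold change was 0.82 (SE 0.19, FDR 0.000465).

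The subunits of this hexamer did not all pass. Mcm2 lay between 4.68 and 12.4 CPM (median 6.44) in control and between 6.41 and 9.83 CPM (median 8.55) in MCD livers. No MCD library exceeded the highest control, and the log2 fold change of 0.21 (SE 0.16, FDR 0.241) did not pass. Mcm3 (0.44, FDR 0.0133) missed both limits and Mcm7 (0.27, FDR 0.0068) the fold limit. Mcm3 passed where 10 counts were required in every library (0.52, FDR 0.00437), where libraries were scaled to total counts only (0.78, FDR 0.000314) or by upper quartiles (0.58, FDR 0.00219), under a limit of FDR 0.05 alone, and without control replicate 5 or 11 or MCD replicate 3 or 7 (0.5001 to 0.531). Mcm4 spanned 2.27 to 10.3 CPM (median 5.99) in control and 4.55 to 7.72 CPM (median 5.70) in MCD livers, with a log2 fold change of -0.07 (SE 0.16, FDR 0.717). The sign of Mcm4 turned with upper-quartile factors, with total counts alone and with another filter, and when control replicate 5 or MCD replicate 2 was left out.

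The tested factors around the helicase did not pass. Cdt1, which loads the helicase, had a log2 fold change of 0.20 (FDR 0.0912), and Cdc45, which activates it, had 0.17 (FDR 0.492). With scaling to total counts only, which put the median of all genes at 0.27, Cdt1 (0.58, FDR 3.54e-05), Mcm2 (0.56, FDR 0.00927) and Mcm7 (0.65, FDR 4.98e-08) passed. Gins2, a subunit of the active helicase, ranged from 13.4 to 33.3 CPM (median 16.3) in control and from 16.5 to 23.9 CPM (median 19.0) in MCD livers, a log2 fold change of -0.03 (SE 0.13, FDR 0.847) whose sign turned under most other settings. Cdc6, the second loading factor, was too low for the test, with 1 to 14 counts (median 0.31 CPM) per control library and 6 to 22 counts (median 0.60 CPM) per MCD library. In 6 of 12 MCD libraries its CPM exceeded every control, and a fit without the filter gave a log2 fold change of 0.76 that did not pass (FDR 0.0834).

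The 3 genes of DNA synthesis and nucleotide supply went both ways. Pcna, the sliding clamp of the DNA polymerases (chr2:132249162-132253314), ranged from 14.8 to 31.5 CPM (median 29.3) in control and from 34.9 to 46.8 CPM (median 39.6) in MCD livers. The groups did not overlap, and the log2 fold change was 0.56 (SE 0.10, FDR 3.04e-05).

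Tk1, the cytosolic thymidine kinase that salvages thymidine in S phase (chr11:117815526-117826092), ranged from 7.80 to 49.1 CPM (median 23.7) in control and from 9.34 to 16.1 CPM (median 12.4) in MCD livers. Its lowest value was in control replicate 8 and its highest in control replicate 7, so that the MCD range lay inside the control range. Tk1 was lower in MCD livers by edgeR (log2 fold change -0.92, SE 0.20, FDR 0.000323). Exons of Tk1 overlap those of Afmid on the other strand.

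Rrm2, the regulated subunit of ribonucleotide reductase, ranged from 5.22 to 12.8 CPM (median 8.85) in control and from 4.43 to 8.19 CPM (median 6.19) in MCD livers, with 3 MCD libraries below every control. It was called lower at a log2 fold change of -0.52 (SE 0.14, FDR 0.0016), which is close to the limit, and lost the call with 12 of the 24 libraries left out in turn. With scaling to total counts only, 34 of the 44 genes were higher and 0 were lower (32.2% and 6.01% of all genes tested), with Tk1 at -0.53 and Rrm2 at -0.17.

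Of the 8 genes for cyclins and Cdk1, 4 were higher and 0 were lower. The mitotic cyclins Ccna2, Ccnb1 and Ccnb2 and their kinase Cdk1 were higher, and Ccnd1, Ccne1, Ccne2 and Ccnf did not pass. Cdk1, the kinase that starts mitosis (chr10:69335146-69352938), ranged from 0.582 to 3.001 CPM (median 1.51) in control and from 3.15 to 7.07 CPM (median 5.38) in MCD livers. All 12 MCD libraries exceeded every control, and its log2 fold change of 1.79 (SE 0.21, FDR 3.43e-08) was the highest of the 44 genes.

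Ccnb2 (chr9:70407692-70421547), a B-type cyclin, followed at 1.79 (SE 0.22, FDR 8.87e-08), with 0.369 to 2.10 CPM (median 1.02) in control and 2.04 to 5.99 CPM (median 3.71) in MCD livers. In 11 of 12 MCD libraries it exceeded every control, and MCD replicate 3 was the exception. Ccnb1, the other B-type cyclin, ranged from 0.140 to 2.21 CPM (median 0.508) in control and from 1.63 to 3.80 CPM (median 2.25) in MCD livers. Control replicate 4 held its highest control value, so that only 6 MCD libraries lay above all controls, and the log2 fold change was 1.68 (SE 0.32, FDR 6.23e-05). The near-identical pseudogene Ccnb1-ps was counted 52 times over all libraries and Ccnb1 831 times, so that a part of the reads may have been split between them.

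Ccna2, the A-type cyclin of S phase and mitosis, ranged from 1.04 to 3.45 CPM (median 1.55) in control and from 3.02 to 6.12 CPM (median 4.65) in MCD livers, with 10 MCD libraries above every control. Its log2 fold change was 1.32 (SE 0.19, FDR 1.26e-06).

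Ccnd1, the D-type cyclin that responds to growth signals (chr7:144929931-144939925), had the highest level per transcript length of the 48 genes, with medians of 33.3 CPM per kilobase in control and 53.0 in MCD livers. In CPM it ranged from 41.2 to 292 (median 124) in control and from 106 to 267 (median 198) in MCD livers. The lowest and highest values were both in control livers, and the log2 fold change of 0.31 (SE 0.29, FDR 0.348; 95% interval -0.28 to 0.90) did not pass. Its interval still holds changes of the size seen for Pcna.

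E-type cyclins start DNA replication with their kinase. Ccne1 ranged from 1.17 to 3.55 CPM (median 2.52) in control and from 1.42 to 4.17 CPM (median 2.73) in MCD livers, a log2 fold change of 0.19 (SE 0.20, FDR 0.405). Ccne2 ranged from 0.615 to 2.82 CPM (median 1.99) in control and from 0.374 to 1.85 CPM (median 1.33) in MCD livers, a log2 fold change of -0.53 (SE 0.22, FDR 0.0372). Ccne2 passed as lower without control replicate 6 (-0.62, FDR 0.00995) and under a limit of FDR 0.05 alone. Both overlapped between diets. Ccnf, a ubiquitin ligase subunit with a cyclin fold, had a log2 fold change of 0.14 (FDR 0.631).

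**Figure D2:**
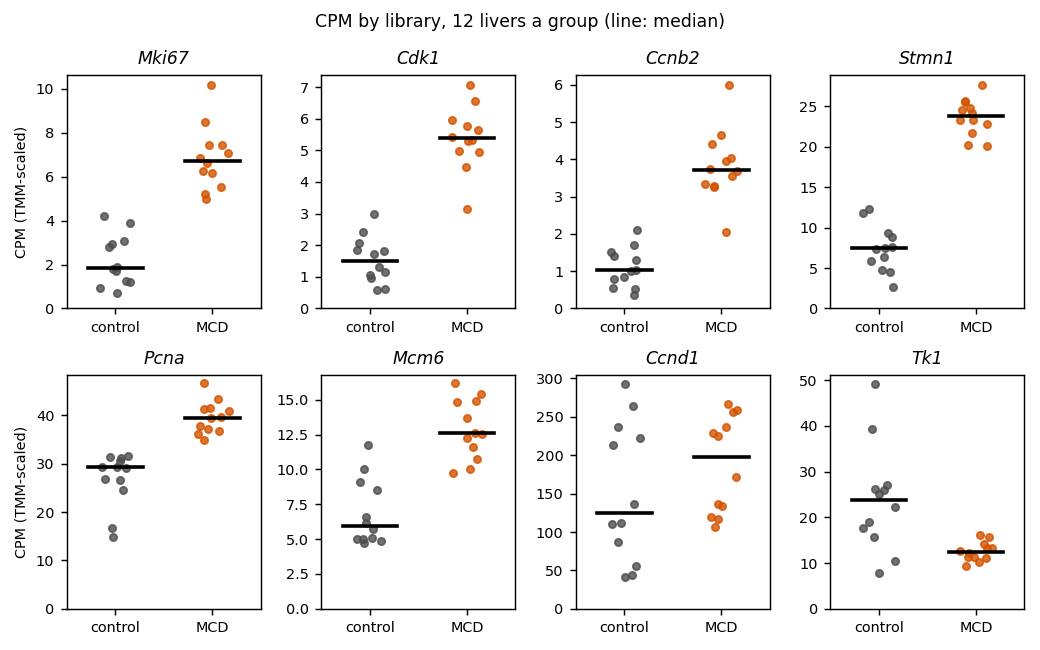
TMM-scaled CPM (y axis, linear from 0) of 8 genes in each of 12 control and 12 MCD livers, with a line at the median of each group. Mki67, Cdk1, Stmn1 and Pcna did not overlap between groups, whereas Ccnd1 and Tk1 had their lowest and highest values in control livers.

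The transcription factors that stand for the early and late programs differed in their calls. Foxm1, which activates genes of mitosis (chr6:128362967-128376146), ranged from 0.130 to 1.87 CPM (median 1.23) in control and from 2.04 to 4.51 CPM (median 2.91) in MCD livers. The groups did not overlap, and the log2 fold change was 1.40 (SE 0.24, FDR 1.59e-05). Exons of Foxm1 share the strand with those of Tex52, so that reads of the shared part could be counted for either gene. E2f1, an activator of S phase genes, ranged from 2.21 to 7.64 CPM (median 4.85) in control and from 4.09 to 6.21 CPM (median 4.99) in MCD livers. The MCD libraries lay within the control range, and the log2 fold change was 0.11 (SE 0.16, FDR 0.582; 95% interval -0.23 to 0.44).

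Among the mitotic kinases and checkpoint genes, 3 of 5 tested were higher. Plk1, polo-like kinase 1 (chr7:122159439-122169873), ranged from 0.195 to 2.71 CPM (median 0.853) in control and from 2.53 to 4.81 CPM (median 3.65) in MCD livers, with a log2 fold change of 1.73 (SE 0.24, FDR 7.26e-07). Control replicate 4, the highest control, exceeded the lowest MCD library only. Aurkb, the kinase of the chromosomal passenger complex, was low in control, at 0.0465 to 1.17 CPM (median 0.410, 1 to 20 counts), and reached 1.01 to 2.64 CPM (median 1.54) in MCD livers. Its log2 fold change was 1.73 (SE 0.28, FDR 6.81e-06), with 9 MCD libraries above every control.

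Bub1b, a checkpoint protein that holds back anaphase, was higher by a log2 fold change of 1.21 (FDR 5.81e-06), with medians of 0.937 CPM in control and 2.62 CPM in MCD livers and 11 MCD libraries above every control. Aurka, the kinase of the spindle poles (0.34, FDR 0.0747), and Nek2, a centrosome kinase (0.67, FDR 0.0324), did not pass. Aurka passed with libraries scaled to total counts only (0.72, FDR 0.000242). Nek2 passed with total counts alone (1.02, FDR 0.00261), limma-voom (0.97, FDR 0.00392), a replicate block (0.88, FDR 0.00998), a sex-linked score as covariate (0.76, FDR 0.00861), and also under the looser limit of FDR 0.05 alone. Nek2 had one of the wider control ranges, 0.512 to 5.91 CPM, against 3.46 to 6.31 CPM in MCD livers.

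The other 3 genes of this role were left out by the filter on low counts. Bub1, a checkpoint kinase of the kinetochore, had 0 to 10 counts (median 0.0973 CPM, 0 in 4 libraries) in control and 9 to 26 counts (median 0.879 CPM) in MCD livers, and 10 MCD libraries exceeded every control. Ttk, another checkpoint kinase, had 0 to 11 counts in control and 5 to 30 in MCD livers, and Melk, a kinase of dividing cells, 0 to 11 and 10 to 28. Without the filter on low counts all 3 were past the limits, with log2 fold changes of 2.21 (Bub1, FDR 0.00015), 1.59 (Ttk, FDR 0.00246) and 1.81 (Melk, FDR 0.000256). These values rest on few control counts, with 37, 47 and 52 summed over the control libraries.

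Both genes of the anaphase-promoting complex, the ubiquitin ligase that starts chromosome separation, were higher. Cdc20, its activator, ranged from 0.233 to 3.39 CPM (median 1.91) in control and from 3.34 to 7.93 CPM (median 4.83) in MCD livers, a log2 fold change of 1.61 (SE 0.29, FDR 2.59e-05) with 11 MCD libraries above every control. Ube2c, its ubiquitin-conjugating enzyme, ranged from 0.492 to 2.34 CPM (median 1.21) in control and from 2.41 to 4.68 CPM (median 3.51) in MCD livers. It did not overlap between groups and had a log2 fold change of 1.41 (SE 0.18, FDR 2.12e-07). Exons of Cdc20 and Ube2c overlap those of Elovl1 and Tnnc2 on the other strand.

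All 6 genes of chromosomes and kinetochores were higher. Mki67, which encodes the proliferation marker Ki-67 (chr7:135689784-135716361), ranged from 0.708 to 4.20 CPM (median 1.84) in control and from 4.97 to 10.2 CPM (median 6.73) in MCD livers. The groups did not overlap, and the log2 fold change was 1.63 (SE 0.22, FDR 5.95e-07), a 3.09-fold difference. Top2a, the topoisomerase that untangles chromosomes, ranged from 0.781 to 3.85 CPM (median 2.39) in control and from 5.01 to 8.85 CPM (median 5.95) in MCD livers, also without overlap, with a log2 fold change of 1.36 (SE 0.23, FDR 1.39e-05).

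Birc5 (survivin, chr11:117849251-117855743), a subunit of the passenger complex with Aurkb, ranged from 0.641 to 2.23 CPM (median 1.41) in control and from 3.14 to 5.05 CPM (median 3.995) in MCD livers, and its groups were likewise apart. Its log2 fold change was 1.503 (SE 0.15, FDR 4.12e-09). Cenpa, the histone variant of centromeres, had the lowest value of the role, 0.63 (SE 0.11, FDR 2.89e-05), with 3.38 to 7.34 CPM (median 4.84) in control and 6.14 to 9.79 CPM (median 7.86) in MCD livers. The kinetochore motor Cenpe had a log2 fold change of 1.42 (FDR 7.5e-05), with 10 MCD libraries above every control. Cenpf, a large protein of the outer kinetochore, had 1.24 (FDR 0.000259), with 9.

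Of the 4 spindle genes 3 were higher. Stmn1, which encodes the microtubule-destabilising protein stathmin (chr4:134468320-134473843), ranged from 2.64 to 12.3 CPM (median 7.44) in control and from 20.1 to 27.7 CPM (median 23.8) in MCD livers. The gap between the groups was wide, and the log2 fold change was 1.68 (SE 0.16, FDR 2.3e-09). Reads of Stmn1 can be shared with the pseudogene Gm11223, which held 745 counts over all libraries beside 8374 of Stmn1.

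Tpx2, which builds spindle microtubules, had a log2 fold change of 1.48 (FDR 0.000102), with medians of 0.850 CPM in control and 3.11 CPM in MCD livers. The microtubule binder Nusap1 had 1.35 (FDR 9.59e-05), and in 6 MCD libraries it exceeded every control. Kif11, the motor that pushes spindle poles apart, did not pass at 0.57 (SE 0.22, FDR 0.0245), with 0.372 to 2.21 CPM (median 1.23) in control and 1.31 to 2.43 CPM (median 1.75) in MCD livers. It passed under 5 of the other settings and without control replicate 8 (0.69, FDR 0.00604).

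All 5 cytokinesis genes were higher. Racgap1, a component of the central spindle (chr15:99620496-99651656), ranged from 0.465 to 3.001 CPM (median 1.14) in control and from 4.26 to 5.62 CPM (median 4.92) in MCD livers. Every MCD library exceeded every control, and the log2 fold change was 1.76 (SE 0.23, FDR 3.24e-07). Its partner in this complex, the motor Kif23, had 0.99 (FDR 0.000201).

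Anln, the scaffold anillin of the contractile ring, ranged from 0.454 to 1.75 CPM (median 1.02) in control and from 1.47 to 2.76 CPM (median 2.18) in MCD livers, a log2 fold change of 1.04 (SE 0.18, FDR 1.65e-05) with 11 MCD libraries above every control. The motor Kif20a had 1.48 (FDR 5.34e-06), with medians of 0.932 CPM in control and 3.42 CPM in MCD livers. Prc1, which bundles microtubules of the midzone, had 1.38 (FDR 2.79e-05), with medians of 1.10 and 2.45 CPM.

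The spread between libraries was larger in control livers for most genes of the table, the cell cycle genes among them. The SD of log2 CPM was larger in the control group for 44 of 44 tested genes and for 90.8% of all genes tested, and its median over the 44 genes was 0.62 in control and 0.267 in MCD livers, compared with 0.388 and 0.205 over all genes tested. This SD also holds counting noise, which is larger at low counts. Of the 44 genes, 20 were short of the filter's level in some control libraries, and the part of counting noise was not tested. The mean log2 CPM over the 22 genes with mitotic roles ran from -0.24 (replicate 6) to 1.22 (replicate 11) in control and from 1.51 (replicate 3) to 2.13 (replicate 8) in MCD livers. Control replicates 4, 5, 8 and 11 were between 0.95 and 1.22, and control replicates 2, 6, 7 and 10 were below 0. Over the 12 genes with replication roles the groups overlapped, at 2.78 to 3.41 (median 3.0) in control and 3.03 to 3.44 (median 3.25) in MCD livers. Control replicate 5 was second only to MCD replicate 12 in this mean. Control replicate 4 had a high mitotic mean (1.03) and a low replication mean (2.87). Without control replicate 12, the library with the lowest TMM factor, no call among the 44 genes changed.

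**Figure D3:**
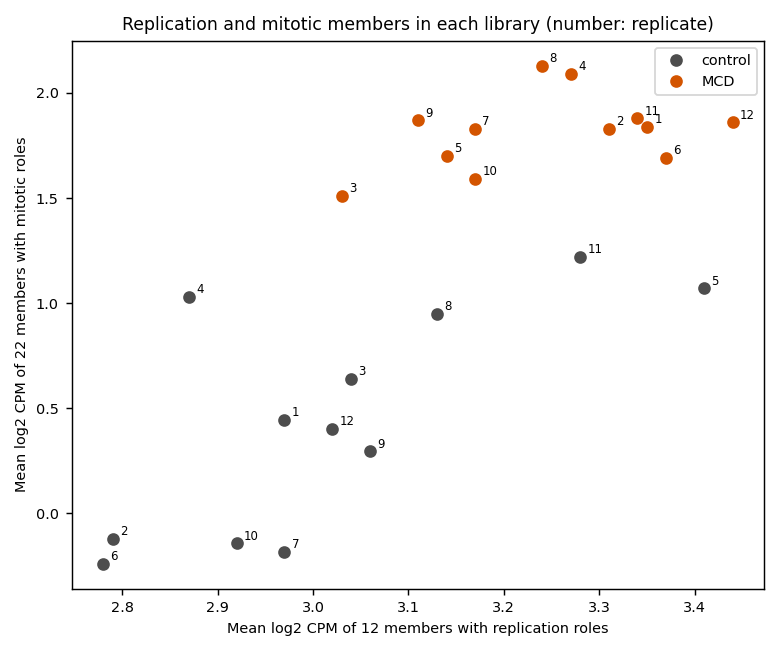
Each point is 1 library, numbered by replicate, with the mean log2 CPM of 12 genes with replication roles on the x axis and of 22 genes with mitotic roles on the y axis. All MCD libraries lie at 1.51 or above on the y axis and all control libraries at 1.22 or below. On the x axis the groups overlap between 3.03 and 3.41.

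**Figure D4:**
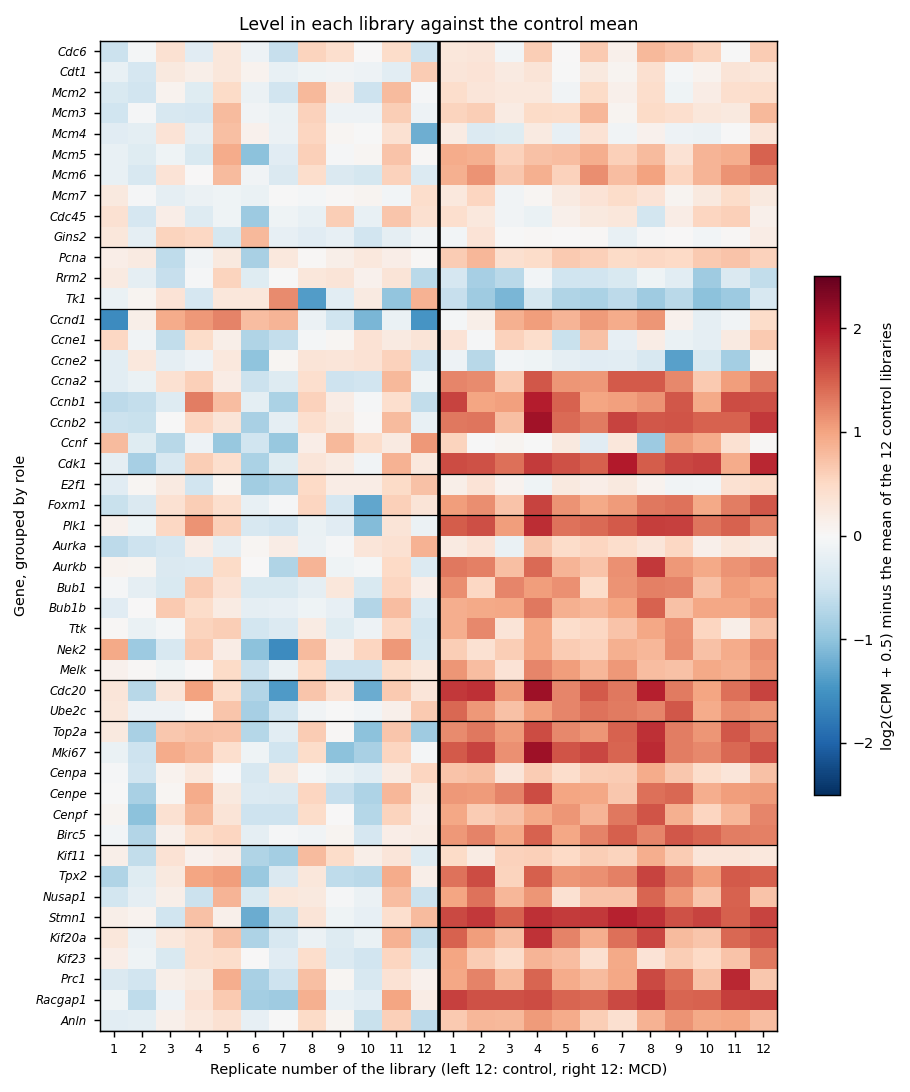
Level of all 48 genes (rows, grouped by role) in each library (columns), as log2(CPM + 0.5) minus the mean of the 12 control libraries. Red cells fill the MCD side from Ccna2 downwards in most rows, the rows of Mcm2, Mcm4, Cdc45 and Gins2 are pale, and Tk1 and Rrm2 are blue.

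Other genes of these processes, none of them among the 48, were counted in the same way. Of 29 other replication genes 26 were tested, and 4 were higher and 1 was lower, both smaller shares than those over all genes (19.2% and 19.1%), with a median log2 fold change of 0.13. Uhrf1, which carries DNA methylation through replication, had the largest rise (1.47, SE 0.32, FDR 0.000248), from a median of 0.982 CPM in control to 3.87 CPM in MCD livers. Chaf1b, a subunit of the histone chaperone at the replication fork, followed (0.998, SE 0.15, FDR 2.71e-06) without overlap between groups. Mcm8, a helicase of DNA repair, was lower (-0.57, SE 0.16, FDR 0.00248), with medians of 2.40 and 1.59 CPM, a call that was lost with total counts alone (-0.20, FDR 0.262). Rrm1 (0.01, FDR 0.924), the partner subunit of Rrm2, and Tyms (0.03, FDR 0.823), which makes thymidylate, did not pass.

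Of 40 other mitosis genes 33 were tested, and 22 were higher and 1 was lower, with a median of 1.08. Of these 22, 16 were short of the filter's level in at least 1 control library and 10 in more than 6, and with 10 counts in every library 13 were tested, 6 were higher and the median was 0.39. Cdca5 (sororin, which protects cohesion between sister chromatids) had the highest value, a log2 fold change of 2.03 (SE 0.30, FDR 1.81e-06). That value rests on few control counts, with 0 to 13 in control and 20 to 50 in MCD livers. Only 2 control libraries were at the filter's level. Ndc80, the kinetochore protein that binds microtubules, rose by 1.81 (SE 0.30, FDR 1.05e-05), from 1 to 12 counts in control to 11 to 43 in MCD livers. Spc24, a subunit of the same kinetochore complex, was lower instead (-0.72, SE 0.15, FDR 0.000186), with medians of 12.1 CPM in control and 6.70 CPM in MCD livers, and its partner Spc25 was at -0.33 (FDR 0.0758). Nuf2, the fourth subunit, rose by 1.81, from 1 to 17 counts to 18 to 55. Both Ndc80 and Nuf2 reached the filter's level through the MCD libraries, with 1 and 3 control libraries at it. With total counts alone Spc24 was still below 0 but did not pass (-0.34, FDR 0.0406).

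Of 25 other genes of G1/S control 23 were tested, and 3 were higher and 4 were lower, no larger shares than the 19.2% and 19.1% over all genes, with a median of 0.0037. Rbl1 (p107, a relative of the retinoblastoma protein) was higher (0.77, SE 0.23, FDR 0.00591), as was the activator E2f2 (0.59, SE 0.15, FDR 0.00133). E2f8, an atypical E2F that represses and is linked to hepatocyte polyploidy, was lower (-0.95, SE 0.21, FDR 0.000377), with medians of 13.9 CPM in control and 6.92 CPM in MCD livers. Wee1, the kinase that holds Cdk1 inactive, was lower as well (-0.83, SE 0.12, FDR 1e-06), with medians of 28.8 and 15.1 CPM. The split of this list moved with the scaling, and with total counts alone 8 were higher and 0 were lower.

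Of 7 inhibitors of cyclin-dependent kinases 5 were tested, and 3 were higher and 0 were lower, beside 19.2% of all genes higher. Cdkn1a (p21), which arrests cells after damage and stress, ranged from 2.24 to 17.7 CPM (median 3.77) in control and from 14.6 to 50.5 CPM (median 23.1) in MCD livers. In 10 MCD libraries it exceeded every control, and the log2 fold change was 2.37 (SE 0.31, FDR 3.04e-07).

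Cdkn2c (p18) did not overlap between groups, at 3.96 to 12.4 CPM in control and 14.3 to 20.6 CPM in MCD livers (log2 fold change 0.98, SE 0.17, FDR 1.36e-05), and Cdkn1c (p57) was higher by 1.34 (SE 0.19, FDR 1.09e-06). Cdkn1b (p27, 0.15, FDR 0.177) and Cdkn2d (p19, 0.03, FDR 0.844) did not pass. Cdkn2a and Cdkn2b were below the filter, with medians of 0.264 and 0.303 CPM in control and 0.394 and 0.642 CPM in MCD livers.

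**Figure D5:**
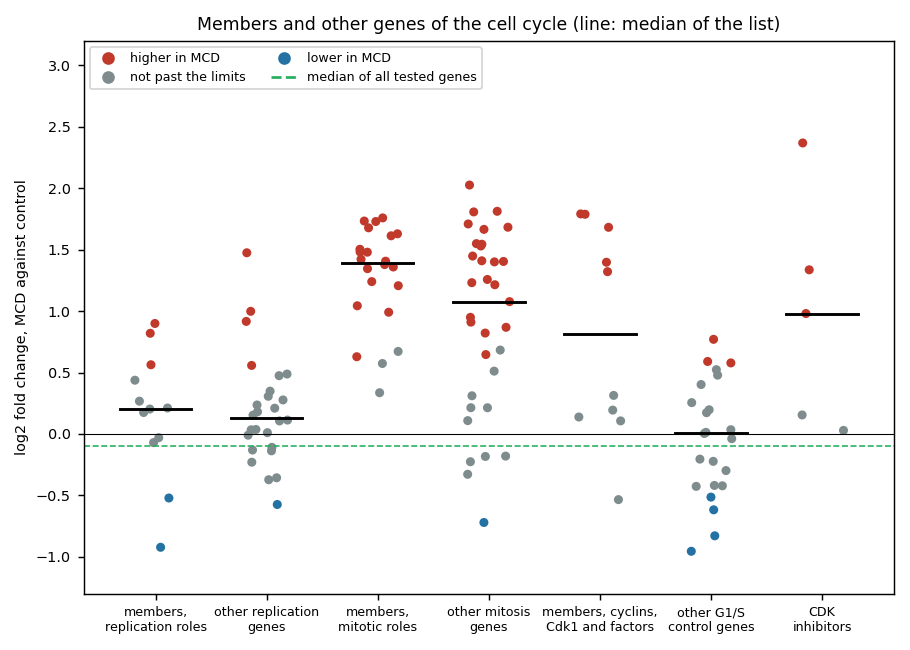
Log2 fold changes (y axis) of the tested genes among the 48, split by role, and of 4 lists of other cell cycle genes; each point is a gene, coloured by its call, and black lines are medians. The medians of the mitotic lists are 1.39 and 1.08, those of the replication lists 0.21 and 0.13; with 10 counts required in every library they are 1.43, 0.39, 0.29 and 0.19.

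Each cell type counted, hepatocytes included, had markers that were called, beside 19.2% of all genes higher and 19.1% lower. All 6 markers of monocyte-derived macrophages were higher, and their summed level was 79.2 to 205 CPM in control and 933 to 2410 CPM in MCD livers. The 4 cholangiocyte markers were all higher (3.71 to 14.8 CPM in control, 40.0 to 95.6 CPM in MCD), as were 4 of 7 lymphocyte markers (3.60 to 12.4 CPM in control, 10.2 to 23.6 CPM in MCD) and 5 of 6 mesenchymal markers, with 1 lower (142 to 363 CPM in control, 500 to 854 CPM in MCD). For neutrophils, 2 of 5 markers were higher (0.649 to 3.71 CPM in control, 3.39 to 23.6 CPM in MCD), and the defining granule genes Mpo and Elane were below the filter, with medians under 0.3 CPM.

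In the other direction, 4 of 5 Kupffer cell markers (137 to 423 CPM in control, 81.3 to 297 CPM in MCD), 3 of 4 endothelial markers (129 to 188 CPM in control, 82.8 to 125 CPM in MCD), 3 of 5 erythroid markers (192 to 1080 CPM in control, 120 to 304 CPM in MCD) and 2 of 6 hepatocyte markers (69100 to 163000 CPM in control, 50800 to 76700 CPM in MCD) were lower. No marker was at 0 in every library. The part of these cell types in the values of the 48 genes was not tested.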

How the data were processed

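Whole livers of 24 C57BL/6J mice, 12 per diet, were profiled by RNA-seq of poly(A) RNA. The deposited values are raw read counts per gene, with 1 column per library and no normalization. The submitters' processing notes name build mm10, bcl2fastq and STAR 2.7.3a; the counting program and its strand setting are not given for these libraries in the sources used here (the study's methods name a stranded kit without tying it to the mouse livers, and PISCES for reads aligned to a human reference). All columns matched a library, and 0 were left unused. Rows without a name held 0.0808% of counts. Names, lengths and coordinates are from GENCODE mouse release 21 (GRCm38), promoters from RefSeq.

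Genes were kept by filterByExpr per diet and compared by edgeR 4.0.16 (glmQLFit, glmQLFTest, TMM, diet only) in R 4.3.3, without covariates. SEs are the log2 fold change over the square root of F. The limits (FDR 0.01, log2 0.5) are those the study set for human liver. CPM use TMM-scaled totals, and log2 CPM a prior count of 2. The overall biological coefficient of variation was 26.8%. Plots used matplotlib 3.10.9 (Python 3.11.15). No label says whether libraries shared a batch, and p-values measure the spread between these animals.

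The 48 genes, their roles and all other lists were chosen with earlier results of these data known. By rule, library values and statistics are given for a preset part of the members, for the 5 highest and 5 lowest fold changes and for members called against the majority, and from each other list the 2 largest called rises and falls (all inhibitors). Other named genes were chosen after their values were seen. Copies of a member were sought at 95% identity over 300 bases.

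On simulated counts for this comparison (14109 genes), edgeR called 79 of 100 genes changed by a log2 fold of 1, 95 of 100 changed by 2, and 2 unchanged genes. The scaling was replaced by upper-quartile factors, by relative log expression factors or by total counts only. The filter was dropped or set to 10 counts in every library. DESeq2 1.42.0, with its own size factors, and limma-voom (limma 3.58.1) replaced the test, and a replicate block or a sex-linked score (Xist minus the mean of Ddx3y, Eif2s3y, Kdm5d and Uty, with no library assigned a sex) entered the edgeR design. The limits were set to an FDR of 0.05 alone or to a log2 fold change of 1, and each library was left out once.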

Additional observations from a re-analysis of the deposited data

How the results depend on the processing

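The count of higher genes among the 48 stayed between 27 and 34 in all alternatives except a log2 limit of 1 (22) and at least 10 counts in every library (11), which tested fewer of them. It was 27 to 30 with 1 library left out and the filter redone. The count of lower genes (2) was 1 with upper-quartile factors, DESeq2, no low-count filter, at least 10 counts, relative log expression factors and the replicate block, 0 with total counts alone and a log2 limit of 1, 3 at an FDR of 0.05 (Ccne2 added), and 1 to 3 with 1 library left out. Rrm2 lost its call in the settings that gave 1 or 0, and Tk1 also with total counts alone (-0.53, FDR 0.0162) and a log2 limit of 1. The median of all genes moved by 0.12 without the filter, by 0.15 with upper-quartile factors and by 0.37 with total counts alone, and with the last the 22 genes with mitotic roles had a median of 1.75 and the 12 with replication roles 0.57.

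Of the other replication genes (4 higher, 1 lower), 14 were higher and 0 lower with total counts alone, 8 and 3 at an FDR of 0.05, 1 and 0 at a log2 limit of 1; 0 were lower with upper-quartile factors and at least 10 counts, and leaving out 1 library gave 3 to 7 higher (7 without control replicate 8 or MCD replicate 8) and 0 to 1 lower. Of the other mitosis genes (22 higher, 1 lower), 6 were higher with at least 10 counts, and 0 were lower with total counts alone or a log2 limit of 1 (22 to 24 higher with 1 library left out). Of the G1/S genes (3 higher, 4 lower), 6 and 2 passed with upper-quartile factors, 8 and 0 with total counts alone, 7 and 8 at an FDR of 0.05, 0 and 0 at a log2 limit of 1, and 1 to 5 higher with 1 library left out (5 without control replicate 3, 1 without control replicate 7). The count of higher inhibitors (3) was 4 with total counts alone and 2 at a log2 limit of 1.

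The sign turned for 2 genes, both near 0. Mcm4 (-0.07) was at 0.0729 with upper-quartile factors, 0.2597 with total counts alone, 0.0086 with at least 10 counts and -0.1166 to 0.0113 with 1 library left out. Gins2 (-0.0308) was at 0.1154 with upper-quartile factors, 0.0233 with relative log expression factors, 0.3155 with total counts alone, 0.0014 without the filter, 0.0490 with at least 10 counts, 0.0234 with DESeq2, 0.0301 with limma-voom, 0.0254 with the replicate block and -0.0756 to 0.0612 with 1 library left out. Of 464 values for single genes under the alternatives, 418 kept direction and call. Replicate numbers were not used as pairs, since no label ties them and not every pair correlated: 8 of 12 same-numbered pairs had a correlation of deviations above 0.1 (median 0.233, other pairs -0.0592), and 2 control libraries correlated best with their own number; under the block 28 genes were higher and 1 lower. The cause of these moves was not tested. Low counts in control livers limit the precision for the 4 genes not tested and for the 17 higher genes short of the filter's level in some control libraries, Aurkb, Ccnb1 and Nusap1 most.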
